A study of Mus musculus with 6 samples.

Results

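Loss of Tcf1 alone was examined in mature CD8 thymocytes of mice by comparing the 2 Tcf1-deficient (Tcf1 KO) libraries with the 2 wild type (WT) libraries, 4 of the 6 RNA-seq libraries of the series. The members were taken by genotype label and by no measured value. The Tcf1 KO cells carry the genotype Tcf1-/-, with Lef1 present. The remaining 2 libraries, Tcf1-/-Lef1-/- (DKO), are labelled as deficient in both factors and entered the model for the shared estimate of spread. WT libraries carry the genotype wild type. The design text names CD4-Cre as the means of deletion, a Cre that becomes active once thymocytes express CD4, but the labels do not say which alleles were floxed, nor do they give the age of the mice. All groups were sorted in the same way, as TCRbeta high, CD69–, CD24–, CD8+ cells. Nothing in the labels ties the 2 libraries of a genotype to different mice. The p-values then reflect no more than the spread between libraries, and that spread may be technical.

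Tcf1, the product of Tcf7, and Lef1 are closely related HMG-box factors that bind the same short DNA motif and can recruit either beta-catenin or repressors of the Groucho family. In the thymus Tcf1 acts from the earliest T cell precursors onward, and with Lef1 it helps to keep CD8 T cells from expressing genes of the CD4 helper lineage. Mature CD8 thymocytes are the last stage before export to the blood. A cell at this stage has finished rearranging its antigen receptor and has passed selection. Some genes of immature thymocytes were still expressed in the WT libraries, with Dntt at 9.1 and 8.03 FPKM and Ccr9 at 123.8 and 121.45 FPKM.

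Values are FPKM, fragments scaled by transcript length and by library size, for 16383 genes whose symbols run alphabetically up to Pcsk5. Later genes, Tcf7 among them, are not analysed here, and the loss of Tcf1 therefore rests on the labels. Log2 differences are Tcf1 KO minus WT on the log2(FPKM + 1) scale, which understates the change of low genes, with the standard error (SE) from limma. P-values are limma's, with Benjamini-Hochberg adjustment over 6761 tested genes. "Rose" and "fell" are used only of genes with adjusted p under 0.05. Spacing of low values corresponded to about 53750000 and 55000000 fragments in the Tcf1 KO libraries and 58750000 and 52250000 in the WT libraries. These depths are approximate. Across tested genes the 2 Tcf1 KO libraries correlated at r = 0.9892 and the 2 WT libraries at r = 0.9916 on the log2 scale, a description across genes. Bulk RNA cannot tell fewer cells expressing a gene from less RNA of it per cell.

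The promoters of 4 genes that changed are shown first, because Tcf1 and Lef1 share a binding motif and both directions of change are represented. Fasl (Fas ligand) and Folr4 (a folate receptor family gene, Izumo1r in RefSeq) had the largest rise and the third largest fall on the log2 scale. Pcsk1 (a proprotein convertase) and Cdkn3 (a cell cycle phosphatase) are examples of a rise and a fall whose promoter holds the motif. Each sequence runs 5′ to 3′ on the gene's strand from 250 bases before to 50 bases after the start in RefSeq (build GRCm38.p6). Fasl lies at chr1:161788446-161788745 (minus strand), Folr4 at chr9:14903718-14904017 (minus strand), Pcsk1 at chr13:75089607-75089906 (plus strand) and Cdkn3 at chr14:46760291-46760590 (plus strand). Capitals mark the letters CTTTGAA or the variants CTTTGAT or else CTTTGTA or also CTTTGTT, searched on both strands.
Fasl promoter: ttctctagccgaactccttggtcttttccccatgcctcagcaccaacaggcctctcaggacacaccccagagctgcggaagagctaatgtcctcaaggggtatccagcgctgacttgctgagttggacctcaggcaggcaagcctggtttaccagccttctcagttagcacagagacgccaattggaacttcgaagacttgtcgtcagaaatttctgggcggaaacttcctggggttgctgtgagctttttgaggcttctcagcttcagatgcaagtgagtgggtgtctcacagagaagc
Folr4 promoter: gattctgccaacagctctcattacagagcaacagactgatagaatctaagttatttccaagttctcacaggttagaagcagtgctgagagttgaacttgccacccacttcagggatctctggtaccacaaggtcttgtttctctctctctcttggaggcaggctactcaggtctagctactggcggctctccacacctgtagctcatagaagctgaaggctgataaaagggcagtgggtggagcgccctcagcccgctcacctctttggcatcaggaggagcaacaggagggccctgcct
Pcsk1 promoter: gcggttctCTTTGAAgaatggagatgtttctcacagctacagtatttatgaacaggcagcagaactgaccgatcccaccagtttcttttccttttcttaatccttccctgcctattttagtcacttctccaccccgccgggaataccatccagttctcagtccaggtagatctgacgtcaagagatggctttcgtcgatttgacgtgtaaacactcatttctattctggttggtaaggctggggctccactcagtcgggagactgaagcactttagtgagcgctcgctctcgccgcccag
Cdkn3 promoter: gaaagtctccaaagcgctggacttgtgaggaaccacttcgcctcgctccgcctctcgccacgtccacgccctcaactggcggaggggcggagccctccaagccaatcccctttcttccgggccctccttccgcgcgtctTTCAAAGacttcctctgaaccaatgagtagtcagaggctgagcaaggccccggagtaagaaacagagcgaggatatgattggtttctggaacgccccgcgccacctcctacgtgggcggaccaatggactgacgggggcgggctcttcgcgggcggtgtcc
None of these letters occurred in the Fasl and Folr4 windows. Pcsk1 held CTTTGAA from 242 bases before its start, and Cdkn3 held TTCAAAG from 111 bases before it. Over promoters of genes that rose, 14.8% (18 of 122 promoters, for 72 of 90 genes matched by symbol) held at least 1 of the letters. The share was 16.0% for genes that fell (8 of 50 promoters, 42 of 51 genes matched), 11.3% for all tested genes (757 of 6679 promoters) and 16.9% for every promoter in the table (5544 of 32851). Genes with several promoters, some of them overlapping, count more than once in these shares. Counted by gene, the letters occurred in 18.1% of genes that rose (13 of 72) and 19.0% of those that fell (8 of 42). The share for all tested genes was 13.3% (705 of 5295). A match is a description of the letters, not of binding.

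In Tcf1 KO cells 90 genes (1.33% of those tested) rose and 51 (0.754%) fell. The largest rises included Fasl, Pcsk1, Il18r1 and Lamc1, and the largest falls included Gdpd3, Folr4 and Gpr83. At least 2-fold changes on the log2(FPKM + 1) scale were seen in 34 rises (0.503%) and 13 falls (0.192%). The median change over the 141 called genes was 0.744 in absolute log2 size, against a median difference of -0.01 and an SD of 0.301 over all tested genes. In all 141 both Tcf1 KO libraries lay outside the range of the WT libraries, which was also true of 25.8% of tested genes on the higher side and 30.0% on the lower side. At an unadjusted p under 0.05, 632 genes (9.35%) were higher and 797 (11.8%) lower.

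The number of calls depended on the libraries. Without WT replicate 1, 9 genes rose and 3 fell, and without WT replicate 2, 9 and 4. Without Tcf1 KO replicate 2 there were 9 and 3, but without Tcf1 KO replicate 1 there were 43 rises and 91 falls. A fit with 1 library on a side assumes that it varies like the other groups. The calls of 6 genes held whichever of the 4 libraries was left out: Fasl, Il18r1, Lamc1 and Mir6340 rose, and Folr4 and Gdpd3 fell. Of the remaining calls, 49 rises and 26 falls held in none of the 4 fits.

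**Figure D1:**
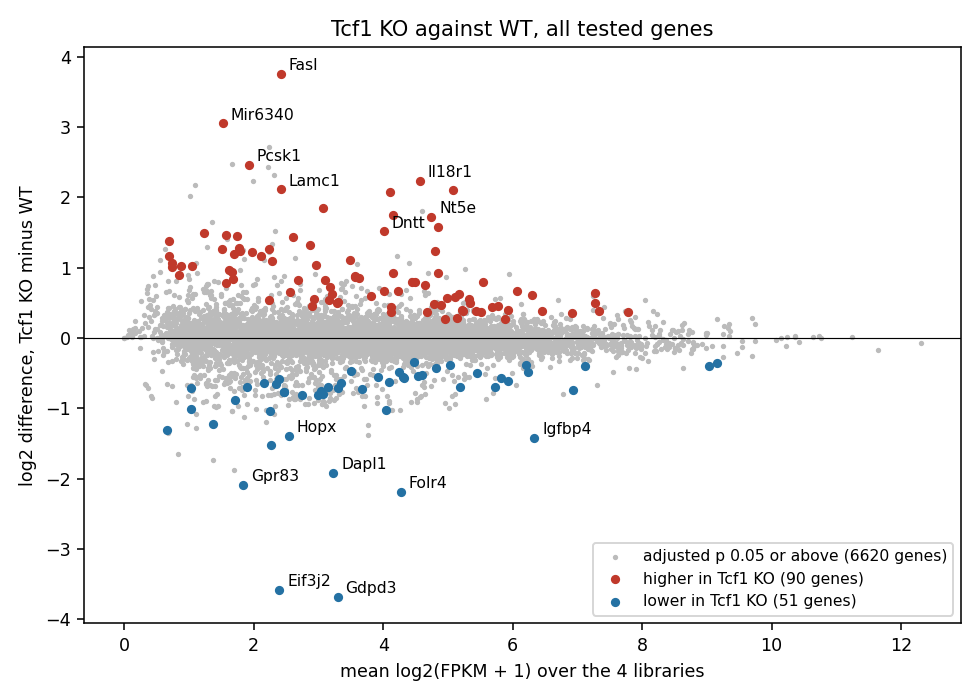
Log2 difference (Tcf1 KO minus WT, log2(FPKM + 1) scale) against mean log2(FPKM + 1) over the 4 libraries, 1 point per tested gene. The 90 rises and 51 falls are coloured, and Fasl and Gdpd3 stand at the upper and lower ends.

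Fasl, whose product kills cells that carry Fas, showed the largest rise. Its level was 18.62 and 18.79 FPKM in the Tcf1 KO libraries, against 0.39 and 0.52 FPKM in the WT libraries. The 2 Tcf1 KO values were nearly equal and far above both WT values (log2 difference 3.76 ± 0.07 SE, adjusted p = 5.58e-05). The receptor gene Fas was at 29.36 and 27.06 FPKM in Tcf1 KO, against 25.9 and 21.59 FPKM in WT (adjusted p = 0.441). Among 24 tested apoptosis and survival genes only Fasl and Bmf rose, against 1.33% of all tested genes, and none fell, with a median log2 difference of 0.04. Bmf, a pro-apoptotic BH3-only protein, was at 17.6 and 13.63 FPKM in Tcf1 KO and 6.31 and 6.98 FPKM in WT (1.11 ± 0.15, adjusted p = 0.0297). Dapk1, a death-associated kinase outside that list, was at 10.16 and 7.98 FPKM in Tcf1 KO and 2.76 and 2.64 FPKM in WT (1.44 ± 0.12, adjusted p = 0.00845). The anti-apoptotic Bcl2 had 45.12 and 47.61 FPKM in Tcf1 KO against 50.74 and 49.67 FPKM in WT (adjusted p = 0.363). Fasl was also the 1 member that rose among 17 tested CD8 and cytotoxic genes, none of which fell (median 0.28), and without either DKO library 3 members were called higher. Of the granzymes, Gzma was at 3.88 and 1.62 FPKM in Tcf1 KO and 1.41 and 2.41 FPKM in WT, with overlapping groups, and Gzmb at 3.4 and 2.99 FPKM in Tcf1 KO and 2.25 and 2.28 FPKM in WT (adjusted p = 0.728 and 0.352).

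Among cytokine and growth factor receptors and their kinases, 5 of 27 tested members rose and none fell, against 1.33% of all tested genes rising, and the median log2 difference was 0.19. Il18r1, a chain of the interleukin-18 receptor, was at 45.43 and 55.81 FPKM in Tcf1 KO and at 9.12 and 10.74 FPKM in WT. Both Tcf1 KO libraries were several-fold above both WT libraries (2.24 ± 0.12, adjusted p = 0.00279). Its partner chain Il18rap stayed low, with 0.78 and 0.97 FPKM in Tcf1 KO and 0.55 and 0.69 FPKM in WT (adjusted p = 0.544). The insulin-like growth factor receptor Igf1r was at 5.76 and 6.48 FPKM in Tcf1 KO and 2.44 and 2.21 FPKM in WT (1.10 ± 0.08, adjusted p = 0.00646). Il2ra, the alpha chain of the interleukin-2 receptor (CD25), was at 3.11 and 3.42 FPKM in Tcf1 KO and 1.27 and 1.11 FPKM in WT (0.96 ± 0.11, adjusted p = 0.0176). The interferon receptor chains moved less. Ifngr2 was at 49.17 and 47.82 FPKM in Tcf1 KO and 37.65 and 36.51 FPKM in WT (0.38 ± 0.05, adjusted p = 0.023), and Ifnar1 at 49.36 and 51.74 FPKM in Tcf1 KO and 37.89 and 40.07 FPKM in WT (0.37 ± 0.06, adjusted p = 0.0497). Their partner chains Ifngr1 and Ifnar2 did not pass (adjusted p = 0.91 and 0.384). Il17rb, a chain of the interleukin-25 receptor outside that list, had 4.14 and 2.81 FPKM in Tcf1 KO and 1.0 and 0.7 FPKM in WT (1.26 ± 0.17, adjusted p = 0.0297). The interleukin-7 receptor Il7r overlapped between genotypes (105.12 and 103.89 FPKM in Tcf1 KO, 105.16 and 79.82 FPKM in WT). Of the 5 calls in the list, 1 held without WT replicate 1, without WT replicate 2 or without Tcf1 KO replicate 2, and 3 held without Tcf1 KO replicate 1.

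Nt5e (CD73), which makes extracellular adenosine, was at 49.16 and 46.0 FPKM in Tcf1 KO and 15.22 and 12.42 FPKM in WT (1.72 ± 0.12, adjusted p = 0.00479). P2rx7, an ATP-gated channel, was at 5.31 and 3.41 FPKM in Tcf1 KO and 1.11 and 1.39 FPKM in WT (1.23 ± 0.18, adjusted p = 0.0407). These were the 2 rises among 10 tested purinergic receptors and ectonucleotidases, against 1.33% of all tested genes, with no falls and a median of -0.01. Cd160, a receptor of killer lymphocytes, was at 27.62 and 29.57 FPKM in Tcf1 KO and 16.84 and 15.33 FPKM in WT (0.79 ± 0.09, adjusted p = 0.0167). Cd200, the ligand of an inhibitory receptor, fell to 3.21 and 2.86 FPKM in Tcf1 KO, against 5.04 and 5.71 FPKM in WT (-0.66 ± 0.11, adjusted p = 0.0478). Both belong to the list of inhibitory and costimulatory receptors, with 1 rise and 1 fall in 12 tested members (1.33% and 0.754% of all tested genes). Without either DKO library this list had 2 rises and no fall, and without Tcf1 KO replicate 2 or either WT library neither. Cd40lg, the helper signal to B cells, was at 2.07 and 1.82 FPKM in Tcf1 KO and 0.48 and 0.43 FPKM in WT (1.02 ± 0.16, adjusted p = 0.0461). Over the 14 genes called here and in the preceding account of apoptosis and receptor genes (Cd200 aside, 5830411N06Rik included), 11 calls ended without WT replicate 1 (adjusted p up to 0.29), 11 without WT replicate 2 (up to 0.279), 11 without Tcf1 KO replicate 2 (up to 0.192) and 6 without Tcf1 KO replicate 1 (up to 0.134). The P2rx7 call also ended without either DKO library (adjusted p = 0.0552 each).

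Some genes of earlier thymocytes rose. Of 13 tested immature and double-positive thymocyte genes 4 rose, against 1.33% of all tested genes, and none fell (median 0.33). Dntt, the terminal transferase that adds bases at receptor gene junctions, was at 28.31 and 24.43 FPKM in Tcf1 KO and 9.1 and 8.03 FPKM in WT (1.52 ± 0.10, adjusted p = 0.00478). Arpp21 had 4.49 and 3.49 FPKM in Tcf1 KO and 0.97 and 0.63 FPKM in WT (1.47 ± 0.18, adjusted p = 0.022). The aquaporin Aqp11 had 2.81 and 2.96 FPKM in Tcf1 KO and 1.34 and 1.18 FPKM in WT (0.78 ± 0.09, adjusted p = 0.0217). Ccr9, a chemokine receptor that guides thymocytes within the thymus and lymphocytes to the gut, was the most abundant of these genes. Its level was 202.29 and 182.23 FPKM in Tcf1 KO against 123.8 and 121.45 FPKM in WT (0.64 ± 0.06, adjusted p = 0.0153). The direction was not shared by the whole list. Cd24a, a marker used for sorting, overlapped between genotypes, and Myb had 10.55 and 9.92 FPKM in Tcf1 KO against 13.75 and 11.3 FPKM in WT (adjusted p = 0.585). Notch3 missed the threshold, with 3.72 and 3.92 FPKM in Tcf1 KO and 1.49 and 1.43 FPKM in WT (0.97 ± 0.18, adjusted p = 0.0627). Without WT replicate 2 none of the 4 calls held, without WT replicate 1 or Tcf1 KO replicate 2 only 1 did, and without Tcf1 KO replicate 1, 2 did.

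Among genes of mature thymocytes and exit from the thymus, 2 of 20 tested members fell, against 0.754% of all tested genes, and none rose. Dapl1 had 3.36 and 4.33 FPKM in Tcf1 KO and 16.8 and 17.68 FPKM in WT (-1.92 ± 0.12, adjusted p = 0.00428). Igfbp4, a secreted binding protein of insulin-like growth factors, had 46.06 and 50.6 FPKM in Tcf1 KO and 121.79 and 141.3 FPKM in WT (-1.42 ± 0.18, adjusted p = 0.0284). The median of the list was close to 0 (-0.002). Klf2, which drives expression of exit receptors, was at 219.36 and 240.6 FPKM in Tcf1 KO and 242.03 and 252.85 FPKM in WT, and Ccr7 at 195.27 and 218.62 FPKM in Tcf1 KO and 214.71 and 208.35 FPKM in WT (adjusted p = 0.45 and 0.938). Neither fall held without WT replicate 1 or without WT replicate 2.

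The regulatory T cell list split in both directions, with 3 rises and 3 falls among 11 tested members, against 1.33% and 0.754% of all tested genes. The rises were Nt5e and Il2ra, given above, and Nrp1 (neuropilin-1), at 3.53 and 3.27 FPKM in Tcf1 KO and 1.15 and 1.44 FPKM in WT (0.94 ± 0.09, adjusted p = 0.0136). Folr4, a surface marker of regulatory and some other T cells, fell to 7.65 and 8.48 FPKM in Tcf1 KO, against 43.7 and 37.18 FPKM in WT (-2.19 ± 0.11, adjusted p = 0.00278). The G protein-coupled receptor Gpr83 was nearly lost, at 0.8 and 0.67 FPKM in Tcf1 KO against 7.64 and 5.34 FPKM in WT (-2.09 ± 0.17, adjusted p = 0.00778). Ikzf2 (Helios) was at 16.53 and 14.38 FPKM in Tcf1 KO and 24.25 and 22.36 FPKM in WT (-0.56 ± 0.09, adjusted p = 0.0433). Foxp3, the factor that defines the lineage, was low in these 4 libraries, with 2.68 and 2.53 FPKM in Tcf1 KO and 1.2 and 0.97 FPKM in WT. Both Tcf1 KO values were above both WT values, but the difference did not pass (adjusted p = 0.267). Only Folr4 of the falls held without WT replicate 1 or without Tcf1 KO replicate 2, and no rise of the list held without Tcf1 KO replicate 2. Without WT replicate 1 or WT replicate 2 the list had 1 rise, and without either DKO library 5 rises and 2 falls.

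CD4 helper genes were represented by 2 rises, Maf and Cd40lg, among 9 tested members with a median of 0.40 and no falls (1.33% of all tested genes rose). Maf, a transcription factor of helper and interleukin-producing T cells, was at 4.31 and 4.72 FPKM in Tcf1 KO and 1.36 and 0.74 FPKM in WT (1.44 ± 0.21, adjusted p = 0.0407). Gata3 was at 16.55 and 16.09 FPKM in Tcf1 KO and 11.65 and 13.01 FPKM in WT (0.38 ± 0.08, adjusted p = 0.0804). Neither helper gene call held when any 1 of the 4 libraries was left out. Of 32 tested T lineage transcription factors, Maf rose while Hopx and Ikzf2 fell, against 1.33% and 0.754% of all tested genes. Hopx, a small homeodomain protein, was at 2.39 and 2.79 FPKM in Tcf1 KO and 8.56 and 8.32 FPKM in WT (-1.40 ± 0.12, adjusted p = 0.00916). Other members did not pass the test. Bcl11b had 63.68 and 87.07 FPKM in Tcf1 KO and 55.54 and 70.86 FPKM in WT, Ets1 had 286.87 and 290.83 FPKM in Tcf1 KO and 314.48 and 298.88 FPKM in WT, and Id3 had 190.53 and 200.08 FPKM in Tcf1 KO and 155.39 and 187.22 FPKM in WT (adjusted p = 0.547, 0.377 and 0.528). Eomes was at 3.52 and 3.61 FPKM in Tcf1 KO and 3.67 and 5.25 FPKM in WT (adjusted p = 0.494). The antiproliferative gene Btg2 was the 1 change among 21 tested immediate early genes, while 1.33% of all tested genes rose and 0.754% fell. Btg2 was at 96.09 and 97.02 FPKM in Tcf1 KO and 61.51 and 64.76 FPKM in WT (0.61 ± 0.05, adjusted p = 0.00778). Of the 7 calls Dntt, Arpp21, Aqp11, Ccr9, Maf, Nrp1 and Btg2, 7 ended without WT replicate 2 (adjusted p up to 0.238), 6 without WT replicate 1 (up to 0.153), 6 without Tcf1 KO replicate 2 (up to 0.165) and 3 without Tcf1 KO replicate 1 (up to 0.102).

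**Figure D2:**
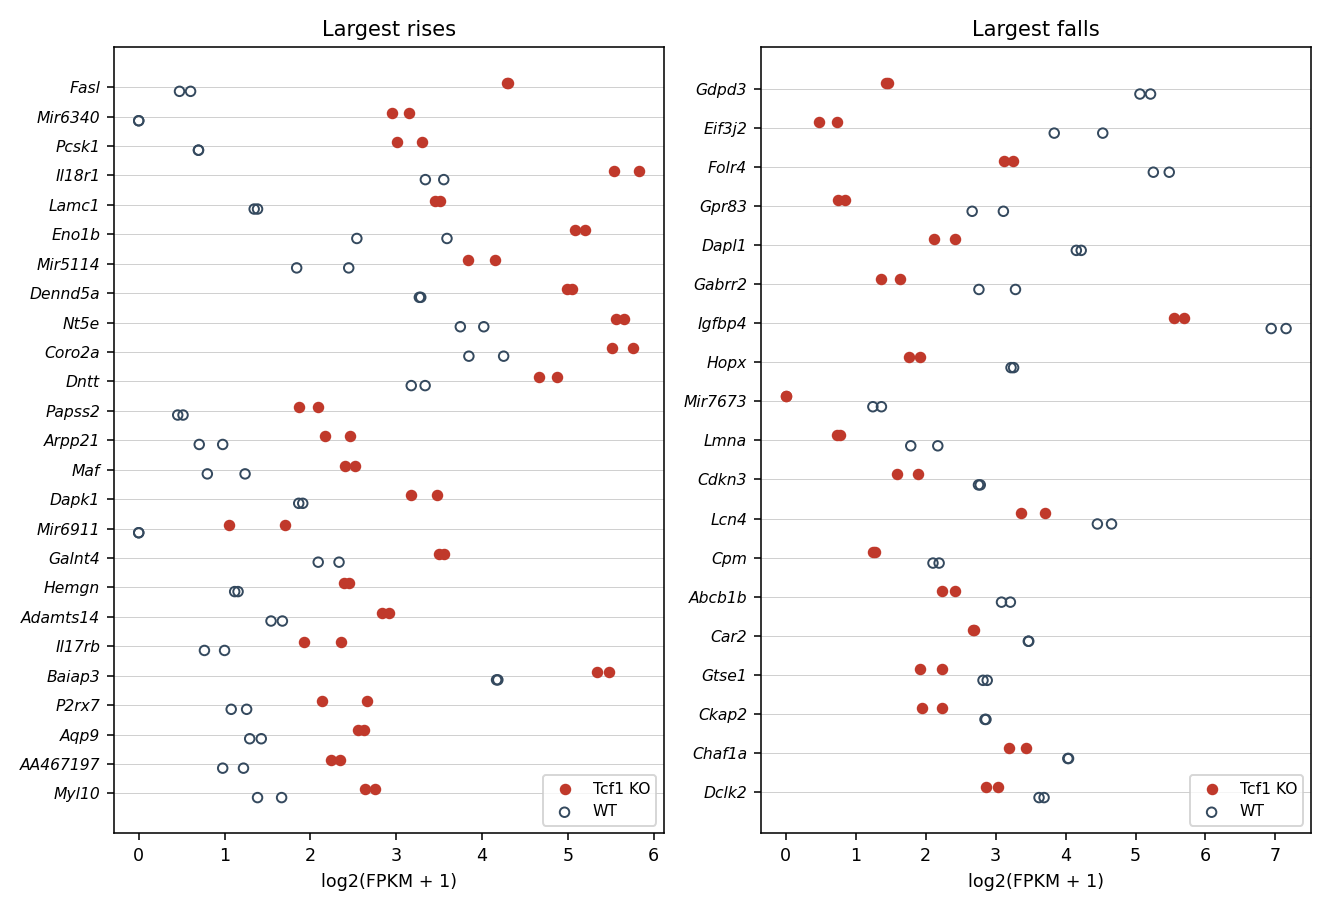
Log2(FPKM + 1) in each library for the largest rises and falls that are described, with Tcf1 KO as filled and WT as open points, 1 point per library. In every gene shown the 2 Tcf1 KO libraries lie on 1 side of both WT libraries, and the Fasl points in Tcf1 KO coincide.

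The remaining genes among the largest rises have varied known roles. Lamc1, the gamma-1 chain of laminin, was at 10.37 and 9.9 FPKM in Tcf1 KO and 1.61 and 1.54 FPKM in WT (2.11 ± 0.08, adjusted p = 0.00066). Pcsk1, which cuts prohormones, was at 8.84 and 7.07 FPKM in Tcf1 KO and 0.62 FPKM in each WT library (2.46 ± 0.16, adjusted p = 0.00478). Adamts14, a procollagen-cutting protease, was at 6.12 and 6.53 FPKM in Tcf1 KO and 2.19 and 1.91 FPKM in WT. In these 3 genes the libraries of a genotype lay close together and far from those of the other. Galnt4, which starts O-linked glycans, was at 10.29 and 10.78 FPKM in Tcf1 KO and 4.04 and 3.26 FPKM in WT. Papss2, which makes the donor for sulfation, was at 2.64 and 3.24 FPKM in Tcf1 KO and 0.43 and 0.37 FPKM in WT. The Rab regulator Dennd5a was at 30.71 and 32.16 FPKM in Tcf1 KO and 8.75 and 8.64 FPKM in WT. Coro2a, an actin-binding coronin, was at 52.93 and 44.58 FPKM in Tcf1 KO and 13.38 and 18.04 FPKM in WT. Baiap3 was at 39.51 and 43.66 FPKM in Tcf1 KO and 17.17 and 16.98 FPKM in WT. The log2 differences of Adamts14, Galnt4, Papss2, Dennd5a, Coro2a and Baiap3 were 1.26, 1.32, 1.49, 1.74, 1.58 and 1.23, with adjusted p-values from 0.00428 (Dennd5a) to 0.0352 (Coro2a). Rises were also called in Hemgn (4.48 and 4.25 FPKM in Tcf1 KO, 1.17 and 1.23 FPKM in WT), the aquaporin Aqp9 (4.87 and 5.15 FPKM in Tcf1 KO, 1.45 and 1.69 FPKM in WT), AA467197 (4.06 and 3.74 FPKM in Tcf1 KO, 0.97 and 1.33 FPKM in WT) and the myosin light chain Myl10 (5.21 and 5.72 FPKM in Tcf1 KO, 1.61 and 2.17 FPKM in WT). Of these 12 genes only the Lamc1 call held whichever library was left out, and the Pcsk1 call ended without WT replicate 1 or WT replicate 2.

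Entries for microRNA hairpins also passed the test. These are values of long-RNA libraries over very short features, so they do not measure the mature microRNA. Mir6340 was listed at 6.73 and 7.88 FPKM in Tcf1 KO and at 0 in both WT libraries (adjusted p = 0.00066). Its mature sequence, with the seed (bases 2 to 8) in capitals, comes from a hairpin at chr2:173701030-173701148 (minus strand, RefSeq, GRCm38.p6).
mmu-miR-6340: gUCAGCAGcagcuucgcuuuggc
Mir6911 was listed at 2.26 and 1.08 FPKM in Tcf1 KO and at 0 in both WT libraries (adjusted p = 0.0497), and Mir5114 at 16.73 and 13.24 FPKM in Tcf1 KO and 2.58 and 4.45 FPKM in WT (adjusted p = 0.0217). In the other direction Mir7673 was listed at 0 in both Tcf1 KO libraries and at 1.37 and 1.58 FPKM in WT (adjusted p = 0.0125). Over the 12 genes of the preceding paragraph with Mir6340, Mir6911 and Mir5114, 12 calls ended without WT replicate 1 (adjusted p up to 0.27), 11 without WT replicate 2 (up to 0.279), 12 without Tcf1 KO replicate 2 (up to 0.125) and 4 without Tcf1 KO replicate 1 (up to 0.11).

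The largest fall was in Gdpd3, a glycerophosphodiester phosphodiesterase family gene. It had 1.71 and 1.76 FPKM in Tcf1 KO and 36.14 and 32.43 FPKM in WT (-3.69 ± 0.14, adjusted p = 0.00066). No other fall reached this size. Gabrr2, a subunit of a GABA-gated channel, had 1.57 and 2.1 FPKM in Tcf1 KO and 8.74 and 5.78 FPKM in WT (-1.53 ± 0.20). The lipocalin Lcn4 averaged 10.66 ± 1.90 FPKM in Tcf1 KO and 22.58 ± 2.33 FPKM in WT (SD, n = 2 each; log2 difference -1.02 ± 0.13 SE), and Cpm, a membrane carboxypeptidase, 1.37 and 1.42 FPKM in Tcf1 KO and 3.57 and 3.3 FPKM in WT (-0.89 ± 0.11). Carbonic anhydrase Car2 had 5.37 and 5.44 FPKM in Tcf1 KO and 10.11 and 10.06 FPKM in WT (-0.79 ± 0.06). The drug transporter Abcb1b had 3.72 and 4.35 FPKM in Tcf1 KO and 7.48 and 8.26 FPKM in WT (-0.82 ± 0.10), and the kinase Dclk2 7.19 and 6.26 FPKM in Tcf1 KO and 11.3 and 11.93 FPKM in WT (-0.71 ± 0.09). Lmna, which encodes lamins A and C, was the 1 fall among 8 tested nuclear lamina genes, against 0.754% of all tested genes. It was at 0.71 and 0.66 FPKM in Tcf1 KO and 3.51 and 2.45 FPKM in WT (-1.23 ± 0.16, adjusted p = 0.0273). The B-type lamin Lmnb1 had 59.67 and 45.97 FPKM in Tcf1 KO and 75.18 and 73.39 FPKM in WT (adjusted p = 0.0932). Gdpd3 kept its call in each of the 4 fits with a library left out. The calls of Gabrr2, Lcn4, Cpm, Car2, Dclk2, Abcb1b and Mir7673 all ended without WT replicate 1 (adjusted p up to 0.194), without WT replicate 2 (up to 0.246) and without Tcf1 KO replicate 2 (up to 0.125), and 3 of them without Tcf1 KO replicate 1 (up to 0.0852). For the T cell genes Folr4, Gpr83, Dapl1, Igfbp4, Hopx, Ikzf2, Cd200 and Lmna, 7 calls ended without WT replicate 1 (up to 0.282), 6 without WT replicate 2 (up to 0.318), 6 without Tcf1 KO replicate 2 (up to 0.171) and 3 without Tcf1 KO replicate 1 (up to 0.0906). Those of Ikzf2 and Cd200 also ended without DKO replicate 1 (adjusted p = 0.0551) or DKO replicate 2 (0.0548).

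Cell division genes had lower values in Tcf1 KO cells. All 56 tested mitosis genes lay lower in both Tcf1 KO libraries than in both WT libraries, which held for 30.0% of all tested genes (48.0% of tested genes had a log2 difference above 0 and 51.9% below 0). The median log2 difference was -0.81, within a range of -1.03 to -0.24, against -0.01 over all tested genes. Of these genes 4 fell at the adjusted threshold (Cdkn3, Gtse1, Ckap2 and Mad2l1), against 0.754% of all tested genes. At an unadjusted p under 0.05, 55 were lower, against 11.8% of all tested genes. Mki67, the marker of cycling cells, had 28.27 and 16.71 FPKM in Tcf1 KO and 46.89 and 42.5 FPKM in WT (adjusted p = 0.0884). Cdkn3 had 2.69 and 2.0 FPKM in Tcf1 KO and 5.75 and 5.87 FPKM in WT (-1.03 ± 0.14, adjusted p = 0.0296). Ccna2 and Ccnb1, the cyclins of S phase and mitosis, did not pass. Ccna2 had 14.21 and 8.93 FPKM in Tcf1 KO and 26.04 and 22.02 FPKM in WT, and Ccnb1 had 6.27 and 3.99 FPKM in Tcf1 KO and 10.48 and 10.66 FPKM in WT (adjusted p = 0.0732 and 0.0666).

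The 2 Tcf1 KO libraries differed from each other in these genes. In all 56 mitosis genes Tcf1 KO replicate 2 was below Tcf1 KO replicate 1, against 2828 of all 6761 tested genes. Their list medians were -1.04 (replicate 2) and -0.56 (replicate 1) relative to the WT mean on the log2 scale. The 2 WT libraries had medians of 0.05 and -0.05. More mitosis genes were called lower without Tcf1 KO replicate 1, a fit that rests on replicate 2 alone, the Tcf1 KO library with the lower values. The mitosis calls all ended with either WT library or Tcf1 KO replicate 2 left out. The count of called mitosis genes also moved with other settings. It was 0 with a pseudocount of 0.1 or with no filter on low values, 1 with a pseudocount of 0.5, under median scaling, with only the 4 libraries in the fit or without either DKO library, and 2 under quantile scaling.

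Replication genes followed a like pattern with smaller differences. Of 41 tested genes 7 fell, against 0.754% of all tested genes, and none rose. In 40 both Tcf1 KO libraries lay below both WT libraries, against 30.0% of all tested genes. The median was -0.56. The exception was the mismatch repair gene Msh6, with 38.1 and 28.84 FPKM in Tcf1 KO and 25.45 and 25.17 FPKM in WT (adjusted p = 0.238). Mcm5, a subunit of the replicative helicase, had 44.13 and 37.61 FPKM in Tcf1 KO and 66.09 and 66.91 FPKM in WT (-0.69 ± 0.08, adjusted p = 0.0217). The other falls were the helicase subunits Mcm2, Mcm4 and Mcm6, the chromatin assembly factor Chaf1a, the cyclin of S phase entry Ccne1 and the flap nuclease Fen1. Chaf1a had 9.8 and 8.12 FPKM in Tcf1 KO and 15.36 and 15.48 FPKM in WT (-0.73 ± 0.10, adjusted p = 0.0368), and Fen1 19.83 and 18.72 FPKM in Tcf1 KO and 28.2 and 28.23 FPKM in WT (-0.53 ± 0.06, adjusted p = 0.0167). Pcna, the sliding clamp, had 219.0 and 189.89 FPKM in Tcf1 KO and 287.34 and 269.92 FPKM in WT (adjusted p = 0.0841). Tcf1 KO replicate 2 was below replicate 1 in 38 of the 41 genes, against 2828 of all 6761 tested genes. The count of called replication genes was 4 under median scaling and 1 with no filter. More were called without Tcf1 KO replicate 1, a fit that rests on Tcf1 KO replicate 2 alone. The replication calls all ended without Tcf1 KO replicate 2 or either WT library. Of the mitosis and replication calls named here (Mcm6 aside), all 10 ended when WT replicate 1 (adjusted p up to 0.293), WT replicate 2 (up to 0.294) or Tcf1 KO replicate 2 (up to 0.176) was left out.

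None of 10 tested G1 cyclin, kinase and Cdk inhibitor genes was called, although 3 had an unadjusted p under 0.05 and 1 was called higher without either DKO library. Of all tested genes, 9.35% were higher and 11.8% lower at that unadjusted p. The median of the list was -0.11, and 8 of the 10 were below 0 (51.9% of all tested genes). In 5 both Tcf1 KO libraries lay below both WT libraries (30.0% of all tested genes). Cyclin E1 (Ccne1), a cyclin of the step from G1 to S phase, was counted in the replication list and fell (-0.56 ± 0.06, adjusted p = 0.0189). Cyclin D2 (Ccnd2) had 182.04 and 167.3 FPKM in Tcf1 KO and 202.18 and 194.52 FPKM in WT, and cyclin D3 (Ccnd3) 164.17 and 149.3 FPKM in Tcf1 KO and 169.66 and 164.09 FPKM in WT (adjusted p = 0.487 and 0.443). Cdkn1b, the inhibitor p27, had 78.71 and 79.02 FPKM in Tcf1 KO and 63.2 and 61.48 FPKM in WT (adjusted p = 0.134). Myc had 43.59 and 44.77 FPKM in Tcf1 KO and 52.75 and 64.16 FPKM in WT (adjusted p = 0.149), and none of 10 tested MYC network genes was called. A difference between the lists was not tested.

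**Figure D3:**
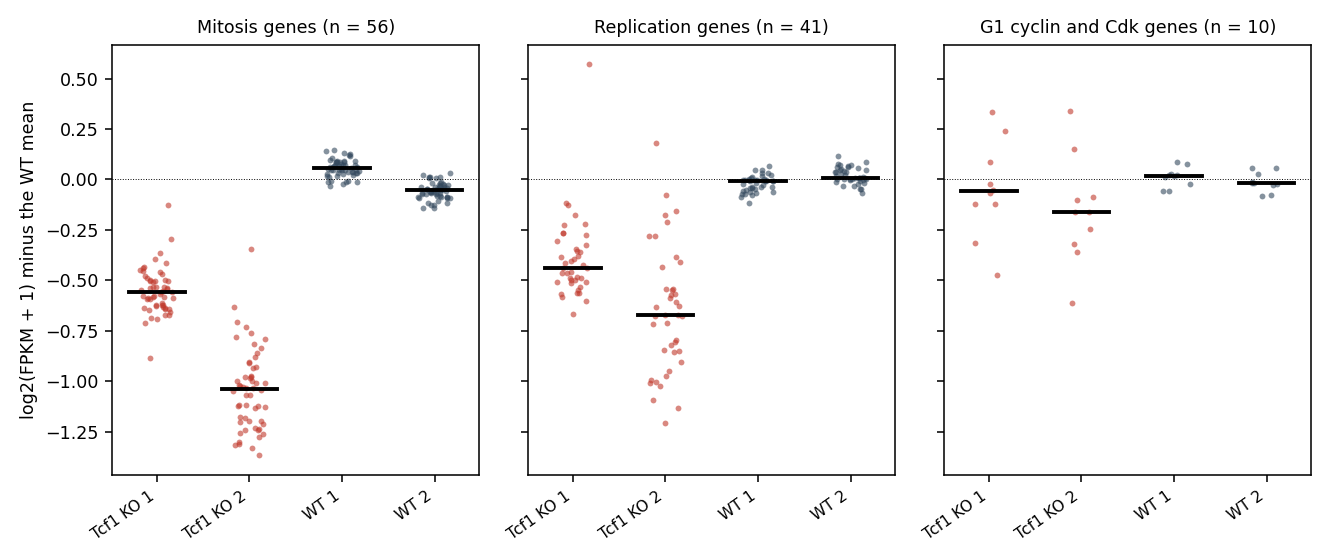
Log2(FPKM + 1) of each gene minus its WT mean, by library, for tested mitosis, replication and G1 genes, with black lines at the medians. In the mitosis panel Tcf1 KO replicate 1 has a median of -0.56 and replicate 2 of -1.04, and both WT libraries lie near 0 by construction.

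The Wnt and beta-catenin pathway, in which Tcf1 and Lef1 act as the DNA-binding partners of beta-catenin, showed no call in 22 tested genes (median 0.05). An unadjusted p under 0.05 was seen in 6 of them, while 9.35% of all tested genes were higher and 11.8% lower at that p. Ctnnb1 (beta-catenin) had 106.8 and 96.42 FPKM in Tcf1 KO and 106.59 and 94.31 FPKM in WT (adjusted p = 0.957). Axin2, a classical target of the pathway, had 9.59 and 10.62 FPKM in Tcf1 KO and 7.48 and 8.14 FPKM in WT (0.33 ± 0.08, adjusted p = 0.0865). The adhesion receptor Cd44 had 1.7 and 1.72 FPKM in Tcf1 KO and 3.37 and 4.15 FPKM in WT (adjusted p = 0.15). With only the 4 libraries in the fit, or without either DKO library, 1 member of the list was called lower.

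No call was made either in the interferon-stimulated genes (32 tested, median 0.02), the proximal T cell receptor signalling genes (23 tested, median 0.04), the cholesterol genes (17 tested, median -0.02) or the chaperones (15 tested, median -0.10). At an unadjusted p under 0.05 these lists had 0, 7, 1 and 0 genes, while 9.35% of all tested genes were higher and 11.8% lower. Without either DKO library 1 chaperone was called higher and 1 interferon-stimulated gene lower. The receptor components Cd3e and Cd3g were at 675.09 and 715.55 FPKM and at 890.38 and 937.96 FPKM in Tcf1 KO, against 583.61 and 627.26 FPKM and 765.95 and 825.91 FPKM in WT (adjusted p = 0.149 for each). The chaperones Hspa8 and Hsp90ab1 did not pass (adjusted p = 0.974 and 0.893). Ifi47, an interferon-induced GTPase, had 170.25 and 155.82 FPKM in Tcf1 KO and 164.6 and 157.38 FPKM in WT. Ifi27l2a, an interferon-induced gene, had 354.55 and 330.58 FPKM in Tcf1 KO and 445.03 and 472.89 FPKM in WT (adjusted p = 0.239), and passed with only the 4 libraries in the fit (0.0425) or without either DKO library (0.041 and 0.0411). In the interferon list Tcf1 KO replicate 2 was below replicate 1 in 31 of 32 genes, against 2828 of all 6761 tested genes. Chemokine receptors and integrins had 1 rise, Ccr9, in 17 tested genes, while 1.33% of all tested genes rose. The Ccr9 call ended without Tcf1 KO replicate 2 or either WT library. The integrin Itgae (CD103) had 309.55 and 325.45 FPKM in Tcf1 KO and 215.03 and 221.54 FPKM in WT, and the chemokine receptor Cxcr6 75.04 and 91.89 FPKM in Tcf1 KO and 38.13 and 50.62 FPKM in WT, without passing the test (adjusted p = 0.125 and 0.159). With only the 4 libraries in the fit, or without either DKO library, 3 members were called higher.

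**Figure D4:**
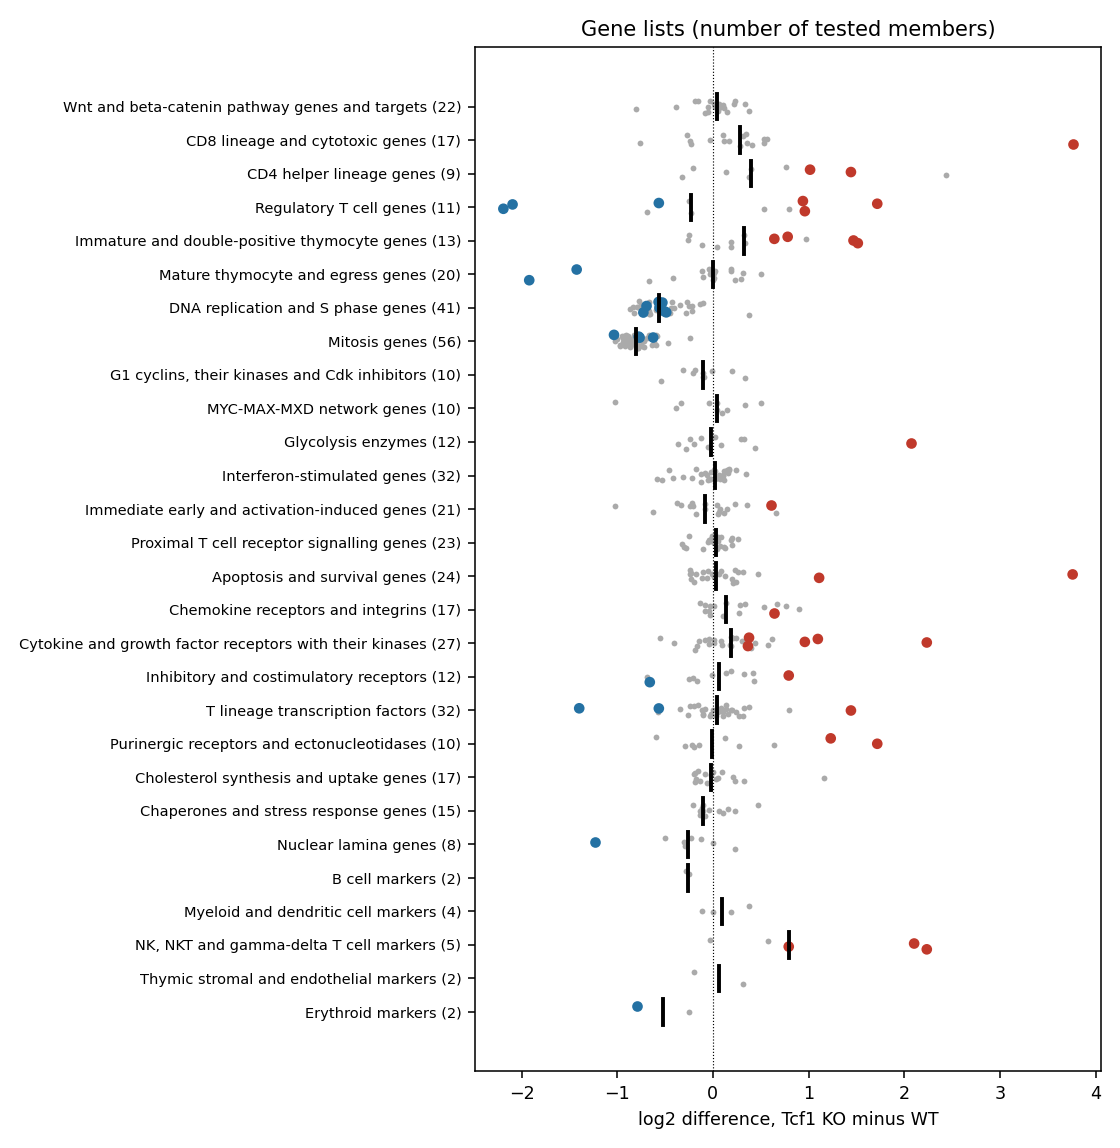
Log2 difference (Tcf1 KO minus WT) of every tested member of the 28 gene lists, with called members coloured and black ticks at list medians. The medians of the mitosis (-0.81) and replication (-0.56) lists lie farthest below 0 among lists of more than 2 genes, and that of the 5 NK, NKT and gamma-delta T cell markers (0.79) farthest above.

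The sorting markers and the genes of other cells were checked against the gate. Cd8a had 646.29 and 656.05 FPKM in Tcf1 KO and 561.49 and 599.89 FPKM in WT, and Cd8b1 had 892.44 and 940.97 FPKM in Tcf1 KO and 719.48 and 789.64 FPKM in WT (adjusted p = 0.153 and 0.118). Cd4, a gene normally silent in CD8 T cells, was at 15.06 and 6.27 FPKM in Tcf1 KO and 1.41 and 0.65 FPKM in WT. Both Tcf1 KO values were above both WT values, but the difference did not pass (2.44 ± 0.48, adjusted p = 0.0689). Cd24a had 4.32 and 2.74 FPKM in Tcf1 KO and 3.23 and 2.61 FPKM in WT, and Cd69 33.22 and 31.63 FPKM in Tcf1 KO and 39.41 and 35.96 FPKM in WT (adjusted p = 0.794 and 0.132). Lef1 was present at 308.74 and 311.52 FPKM in Tcf1 KO and at 316.1 and 281.86 FPKM in WT, with overlapping groups (adjusted p = 0.686). In DKO, Lef1 RNA was still found, at 130.92 and 130.23 FPKM, below both WT libraries (DKO minus WT -1.19 ± 0.06, adjusted p = 0.000157). Which part of Lef1 was deleted is not given in the labels, so the double deficiency rests on them and on this lower level. The 3 Y-linked genes in the table stayed at or below 0.02 FPKM in all libraries.

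Of 9 markers of NK, NKT and gamma-delta T cells 5 were tested and 3 rose, against 1.33% of all tested genes. These were Il18r1 and Cd160, which are the receptor genes described above, and 5830411N06Rik at 84.53 and 56.94 FPKM in Tcf1 KO and 12.98 and 18.18 FPKM in WT (2.10 ± 0.24, adjusted p = 0.0213). The summed level of the list was 217.7 and 216.6 FPKM in Tcf1 KO and 100.1 and 119.4 FPKM in WT. Ncr1, a defining NK cell gene, was at 0 in all 4 libraries, and Klrb1c (NK1.1) had 0.23 and 0.35 FPKM in Tcf1 KO and 0.59 and 0.41 FPKM in WT. Klrd1 overlapped between genotypes (58.74 and 72.48 FPKM in Tcf1 KO, 59.64 and 74.51 FPKM in WT). The part of such cells in the rises of Il18r1 and Cd160 was not tested beyond these values. The count of called markers was 1 with either WT library or Tcf1 KO replicate 2 left out.

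Most listed markers of other cell types were too low to be tested. B cell markers summed to 16.23 and 17.98 FPKM in Tcf1 KO and 20.79 and 21.47 FPKM in WT, mostly from a single tested member. None of 2 tested was called. Ms4a1 was at or below 0.01 FPKM and Pax5 at 0 in all 4 libraries. Myeloid markers summed to 67.75 and 73.86 FPKM in Tcf1 KO and 65.27 and 72.03 FPKM in WT, mostly from Cst3, and none of 4 tested was called. Thymic stromal markers summed to 2.74 and 2.18 FPKM in Tcf1 KO and 2.24 and 2.35 FPKM in WT, with none of 2 tested called. Erythroid markers had the fall of Car2 in 2 tested genes (0.754% of all tested genes fell), while the globin genes stayed at or below 0.27 FPKM in these 4 libraries.

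How the genes that changed in Tcf1 KO stood in the libraries labelled as deficient in Lef1 too was read from DKO against Tcf1 KO, in which 38.4% of tested genes differed at adjusted p under 0.05. This comparison uses the same Tcf1 KO libraries as the one with WT, so the values are given side by side. Fasl was at 18.62 and 18.79 FPKM in Tcf1 KO, 39.55 and 41.4 FPKM in DKO and 0.39 and 0.52 FPKM in WT. The DKO level was above that of Tcf1 KO (DKO minus Tcf1 KO 1.07 ± 0.07, adjusted p = 0.000538). Il18r1 and Igf1r were likewise higher in DKO, at 203.19 and 188.16 FPKM (1.94 ± 0.12, adjusted p = 0.000482) and 41.61 and 43.88 FPKM (2.62 ± 0.08, adjusted p = 7.94e-05). Folr4, lower in Tcf1 KO, was lower again in DKO, at 1.06 and 0.82 FPKM (-2.23 ± 0.11, adjusted p = 0.000286).

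Among the 90 rises, 45 were higher in DKO than in Tcf1 KO and 27 were lower. Among the 51 falls, 3 were higher in DKO and 43 lower. Over all tested genes 15.9% were higher and 22.6% lower. These counts share the Tcf1 KO libraries with the calls. Some of the rises that were lower in DKO follow. Nt5e was at 49.16 and 46.0 FPKM in Tcf1 KO but at 6.11 and 7.26 FPKM in DKO, below both WT libraries (DKO minus Tcf1 KO -2.66 ± 0.12, adjusted p = 0.0002). Dntt in DKO was at 10.17 and 9.36 FPKM (-1.34 ± 0.10, adjusted p = 0.000668), Cd160 at 1.42 and 1.65 FPKM (-3.55 ± 0.09, adjusted p = 3.4e-05), Adamts14 at 0.03 and 0.02 FPKM (-2.84 ± 0.10, adjusted p = 0.000115) and Bmf at 1.85 and 2.39 FPKM (-2.41 ± 0.15, adjusted p = 0.000482). Car2 did the reverse, with 5.37 and 5.44 FPKM in Tcf1 KO, 16.36 and 16.25 FPKM in DKO and 10.11 and 10.06 FPKM in WT (1.43 ± 0.06, adjusted p = 0.000163). For Gdpd3, Pcsk1, Il2ra and Lmna the DKO level did not differ from that of Tcf1 KO beyond the threshold. Gdpd3 had 1.29 and 1.99 FPKM in DKO (-0.06 ± 0.14, adjusted p = 0.752), Pcsk1 7.7 and 10.48 FPKM (0.17 ± 0.16, adjusted p = 0.47), Il2ra 2.97 and 3.37 FPKM (-0.03 ± 0.11, adjusted p = 0.824) and Lmna 0.67 and 0.54 FPKM (-0.07 ± 0.16, adjusted p = 0.749).

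**Figure D5:**
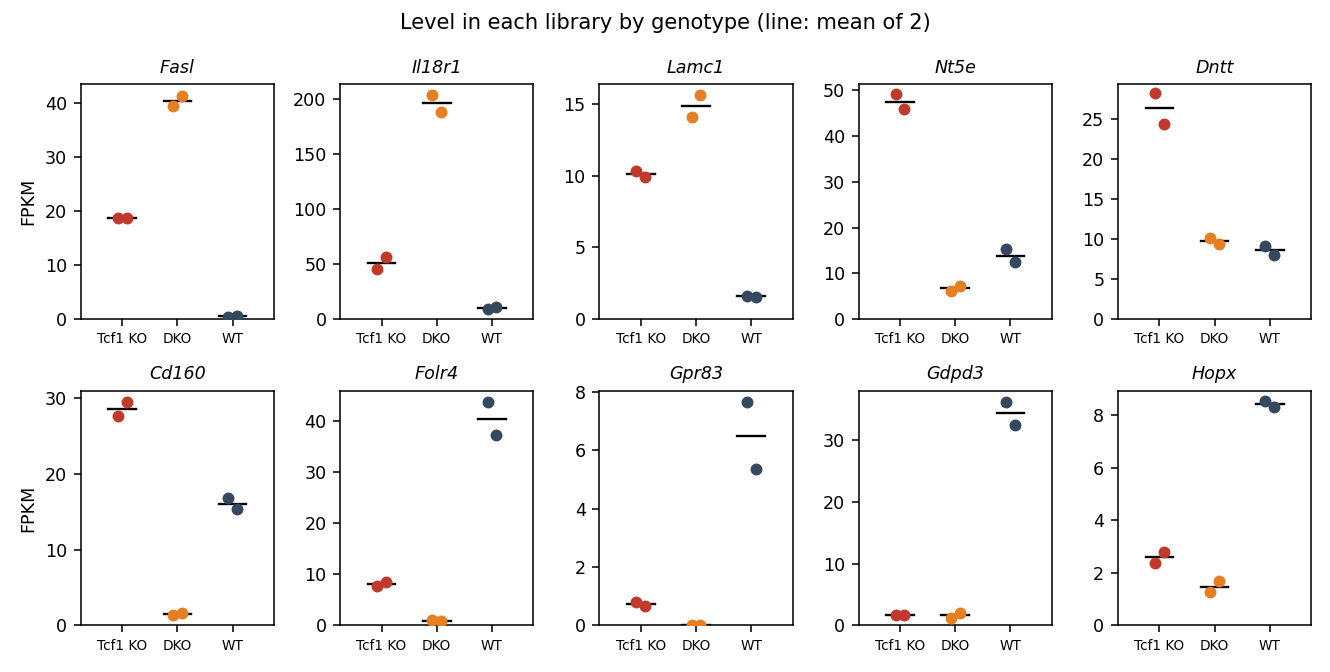
FPKM in each library for 10 genes that changed in Tcf1 KO, with Tcf1 KO at left, DKO in the middle and WT at right, and lines at the mean of 2 libraries. Fasl and Il18r1 are higher again in DKO, Nt5e, Dntt and Cd160 are highest in Tcf1 KO, and Gdpd3 is low in both mutant genotypes.

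Genes with near-identical copies need their sums. Eif3j2, a translation initiation factor gene, was at 0.39 and 0.66 FPKM in Tcf1 KO and 22.13 and 13.3 FPKM in WT (-3.58 ± 0.24, adjusted p = 0.00479). Its copy Eif3j1 was at 30.66 and 28.31 FPKM in Tcf1 KO and 10.32 and 17.75 FPKM in WT (adjusted p = 0.0755, and 0.0195 without WT replicate 2). The sum of the pair was 31.05 and 28.97 FPKM in Tcf1 KO and 32.45 and 31.05 FPKM in WT, and 90.8% of the 50-base stretches of Eif3j2 transcripts also occur in Eif3j1. Eno1b, a copy of the glycolysis gene Eno1, was at 35.62 and 32.98 FPKM in Tcf1 KO and 4.82 and 11.05 FPKM in WT (2.07 ± 0.32, adjusted p = 0.0436). It was the 1 call among 12 tested glycolysis genes (1.33% of all tested genes rose). The sum with Eno1 was 381.76 and 357.79 FPKM in Tcf1 KO and 380.92 and 404.22 FPKM in WT, and 75.3% of the 50-base stretches of Eno1b occur in Eno1. The values of single copies are therefore uncertain. The Eif3j2 call ended without Tcf1 KO replicate 2, and that of Eno1b without either Tcf1 KO library or either DKO library (adjusted p up to 0.158).

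Called genes that are neighbours in RefSeq order among the tested genes (6718 of 6761 matched) formed 7 pairs, and 6 of these moved the same way. Gpr83 and Folr4 fell by 2.09 and 2.19 on the log2 scale. Ikzf2 fell with Bard1 (-0.56 and -0.58) and Abcb1b with Abcb1a (-0.82 and -0.70). Maf rose with Cdyl2 (1.44 and 0.73), Il17rb with Chdh (1.26 and 0.90) and Ifnar1 with Ifngr2 (0.37 and 0.38). Arhgap11a fell and its neighbour Aqr rose (-0.56 and 0.79). The Abcb1 genes share stretches too (15.5% of the 50-base stretches of Abcb1a occur in Abcb1b), so reads can be exchanged between them. Among all called genes 90 rose and 51 fell, and genes that were not tested can lie between neighbours. Neither the number of such pairs nor their shared direction was tested.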

How the data were processed

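Per the labels, total RNA of sorted mature CD8 thymocytes was sequenced from 3 genotypes with 2 libraries each. The authors deposited 1 table of FPKM, 2 decimals, with no counts. The submitters' processing notes name RSEM 1.2.21, FastQC and mm9 as the build; aligner, annotation and filters are not stated in these sources. RSEM shares a read between the genes it matches. Of the listed genes 13 had symbols turned into dates, restored from the accession in the row. Depth was estimated from low values of transcripts of 400 to 1000 bases with an assumed fragment length of 200, where 62.4% to 70.0% of values lay within 0.25 of whole fragments; no count test was run.

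Genes reaching 1 FPKM in 2 or more libraries were kept (6761, with 9622 set aside). Log2(FPKM + 1) was fitted in limma 3.58.1 (R 4.3.3) with a variance trend and genotype as the only term over all 6 libraries, which left 3 residual degrees of freedom. P-values were Benjamini-Hochberg adjusted, with a threshold of 0.05. The script was tested on simulated data. Alternatives were the pseudocount, the filter, median and quantile scaling, a replicate block, a fit of the compared groups only, and leaving out each library. Median and quantile scaling moved the median log2 difference by less than 0.01.

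Genes named were the targeted Lef1, the sorting markers, the 25 largest rises and 20 largest falls (provisional symbols, Gm or LOC with digits or ending in Rik, skipped unless in a list), called members of 28 gene lists (579 entries), the 2 most abundant members of lists with no call (those near WT are not all printed), and close copies. A gene that this rule would name and a cell type marker are not reported here. Further list members and neighbours, among them Fas, Foxp3, Mki67, Msh6, Axin2, Itgae and Mcm6, were named after their values were seen. The members and lists were chosen with earlier results of these data known.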

Additional observations from a re-analysis of the deposited data

How the results depend on the processing

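The numbers of genes higher in Tcf1 KO than in WT (90) and of genes lower in Tcf1 KO than in WT (51) stayed within 1.5 times under each change of pseudocount or scaling, with the replicate block, with only the compared groups in the fit and at a filter of 5 FPKM (75 to 108 higher, 35 to 65 lower). With no filter, where 11568 genes were tested, 27 rose and 12 fell. Leaving out 1 library at a time gave 9 to 113 rises and 3 to 91 falls, and for genes changed between DKO and Tcf1 KO 1583 to 2275, against 2599 with all libraries. Of the 65 named genes that were called, none reversed its direction under any of the alternatives tried. With no filter 39 of these calls ended, with 1 Tcf1 KO or WT library left out 22 to 55, without either DKO library 8, and under the other alternatives 3 to 11. Deviations of same-numbered libraries correlated across genes at r = 0.0454 (Tcf1 KO and WT), 0.1469 (DKO and Tcf1 KO) and 0.1545 (DKO and WT). With 2 numbers and no label that ties them, pairing was not established. With a replicate block 86 genes rose, 65 fell and, for genes changed between DKO and Tcf1 KO, 2812 were called. The mitosis list then had 15 falls, and Cd4 passed (adjusted p = 0.00972, against 0.0575 to 0.348 over the other alternatives), as did the MYC network gene Mxd4 (0.0372, against 0.279 without the block). Genes under 1 FPKM were mostly not tested, and depth limits them.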
